A study of Mus musculus with 4 samples.

Results

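Sialyltransferases are the Golgi enzymes that cap glycoproteins and glycolipids with sialic acid, and 10 of their genes were followed here: St3gal1 to St3gal6, St6gal1, St6galnac2, St6galnac4 and St6galnac6. They were taken by name from the 55487 rows of the deposited gene table, using for each symbol the identifier with the highest total count, and all 10 passed the filter on low counts. The set was put together around St6galnac2, which was chosen by its counts in this same comparison: it was known to be lower in the libraries labelled knockout. Its difference between the groups is therefore given as a description, without a test.

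The libraries came from bulk hepatocellular carcinoma tissue of 4 mice. All 4 carried, per the series title, Alb-cre, an albumin-promoter Cre that acts in hepatocytes, and H11-myc, a Myc transgene at the H11 locus that gives spontaneous liver tumours. In 2 mice (labelled ko1 and ko2, here knockout 1 and 2) Tfrc, the transferrin receptor 1 gene, was conditionally deleted in the liver. The other 2 (wt1 and wt2, here wild type 1 and 2) were wild type for Tfrc. Cells in which the albumin promoter is silent keep Tfrc in such a model, and bulk RNA counts them together with the tumour cells.

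Total counts were 15918349 to 17052943 per library, and a floor of 3 counts is 0.176 to 0.188 CPM (counts scaled to library size). Tfrc itself had 8441 and 3603 counts in wild type 1 and 2 and 5407 and 3244 in knockout 1 and 2, so the groups overlapped and the gene did not check the labels. Its reads come from the whole gene, and the labels name no deleted exon. Directions below are therefore those of the libraries labelled knockout. Wild type 2 stood apart on the first principal component, at 86.6 against -38.5 to -11.2 for the others. Alb, the main secreted protein of hepatocytes, took 0.6% to 2.66% of counts and mitochondrial genes took 4.13% to 16.63%. All 11 hepatocyte markers passed the filter on low counts.

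Each family is named for the bond it makes. ST3GAL enzymes place sialic acid in alpha-2,3 linkage on galactose, ST6GAL enzymes in alpha-2,6 linkage on galactose, and ST6GALNAC enzymes in alpha-2,6 linkage on N-acetylgalactosamine. In liver, hepatocytes sialylate most of the glycoproteins they secrete into plasma, and removal of the terminal sialic acid exposes galactose to the hepatic asialoglycoprotein receptor. Altered sialylation is a common feature of carcinoma cells.

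St6galnac2, whose product adds sialic acid to the N-acetylgalactosamine at the base of mucin-type O-glycans, was lower in both libraries labelled knockout. The gene (ENSMUSG00000057286) lies on chromosome 11 from 116675303 to 116694868 on the minus strand of mm10. The wild type libraries held 1419 and 1057 of its counts, against 228 and 272 for knockout 1 and 2. On the scale of CPM with TMM library scaling these were 77.3 and 68.7 in wild type against 14.1 and 17.2 in knockout. The lowest wild type value was far above the highest knockout value, and the mice of a group lay close together. The ratio of the higher to the lower mouse was 1.12 in wild type and 1.22 in knockout, where the median over all 16310 tested genes was 1.46 and 1.26. The means were 73 ± 6.08 CPM for wild type against 15.6 ± 2.19 CPM for knockout (SD, n = 2 each), a 4.68-fold lower level. On the log2 scale the fitted difference was -2.22, and it stayed between -2.37 and -2.12 when any 1 of the 4 libraries was left out. Of the 16310 tested genes, 120 had a lower log2 fold change. St6galnac2 was chosen by these same counts. Its closeness within groups, its narrow range with a library left out and this rank are therefore descriptions only.

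The counts of St6galnac2 share their place with other annotated genes. A second, shorter identifier with the same symbol (ENSMUSG00000110170, 116677483 to 116681290 on the same strand) shares 383 of its 1683 exonic bases with the longer one. Counts were 259 in wild type 1, 62 in wild type 2, 41 in knockout 1 and 42 in knockout 2. In CPM the shorter identifier was highest in wild type 1, at 14.1. Wild type 2, at 4.03 CPM, was less far above knockout 1 and 2, at 2.53 and 2.65 CPM. Its log2 fold change was -1.81, and -0.67 without wild type 1. The longer identifier was high in both wild type libraries. With both identifiers summed the log2 fold change of St6galnac2 was -2.17. The gene 1810032O08Rik on the opposite strand shares 497 exonic bases with St6galnac2, which has 5790, with 563 and 341 counts in wild type against 443 and 480 in knockout. It overlapped between the groups. No source used here gives the strand setting of the counting, so in the shared bases reads of these genes cannot be told apart.

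**Figure D1:**
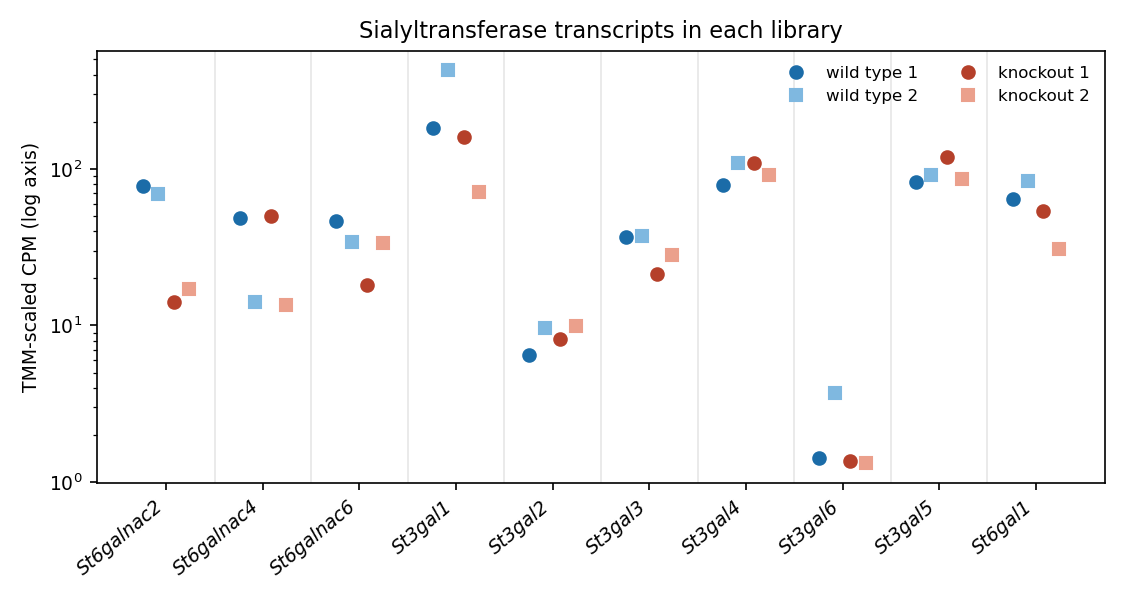
TMM-scaled CPM (log axis) of the 10 sialyltransferase genes, with 1 point per library (blue wild type, red knockout; circles replicate 1, squares replicate 2). St6galnac2 sits at 77.3 and 68.7 in wild type against 14.1 and 17.2 in knockout, while St6galnac4 follows the replicate number.

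The other members of the ST6GALNAC family did not share that pattern. St6galnac4, whose enzyme adds the second sialic acid of disialylated core 1 O-glycans, had 48.3 and 14.1 CPM in wild type 1 and 2, and 50 and 13.6 CPM in knockout 1 and 2. Its values were high in the mice numbered 1 and low in those numbered 2 in both groups, so the group means, 31.2 ± 24.2 and 31.8 ± 25.7 CPM (SD, n = 2 each), were near each other while mice within a group differed 3.43-fold and 3.68-fold. Its fitted log2 fold change of 0.02 (95% interval -1.71 to 1.76) turned negative under library totals, with no filter and under limma-voom. It ran from -1.23 without knockout 1 and -0.6 without wild type 2 to 0.68 without knockout 2 and 1.14 without wild type 1. The labels do not say that a shared number marks a shared litter, day or batch.

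St6galnac6, which acts mainly on glycolipids to make alpha-series gangliosides, had 46.4 and 34 CPM in wild type against 18.1 and 33.7 CPM in knockout. Knockout 2 reached nearly the level of wild type 2. With library totals in place of TMM the groups overlapped, with 524 counts in wild type 2 and 535 in knockout 2. The log2 fold change of -0.63 (SE 0.4) was -0.28 without knockout 1, -0.43 without wild type 1 and -1.15 without knockout 2. St6galnac6 and St6galnac4 are neighbours on chromosome 2, on the same strand, with 10 bases between the annotated end of St6galnac4 at 32599698 and the start of St6galnac6 at 32599709. Their library profiles differed all the same: St6galnac4 was high in wild type 1 and knockout 1, and St6galnac6 was lowest in knockout 1.

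The ST3GAL genes of O-glycans come next. St3gal1, which caps the galactose of core 1 O-glycans (ENSMUSG00000013846, chromosome 15, 67102875 to 67176830), had the highest count of any member. It stood at 182 and 425 CPM in wild type 1 and 2, and at 159 and 71.5 CPM in knockout 1 and 2. Knockout 1 lay just under wild type 1, and most of the distance between the means, 303.5 ± 172 and 115 ± 61.6 CPM (SD, n = 2 each), came from wild type 2 and knockout 2. In the fit this was a log2 fold change of -1.4 (SE 0.55, 95% interval -2.7 to -0.1, edgeR adjusted p = 0.591). It was -0.66 without wild type 2, -0.94 without knockout 2 and -2.12 without knockout 1. St3gal2, an enzyme of the same acceptors and of gangliosides, was low at 6.48 and 9.68 CPM in wild type against 8.2 and 9.96 CPM in knockout. Its groups overlapped (log2 fold change 0.17, 95% interval -0.8 to 1.14, and -0.13 without wild type 1, 0.49 without wild type 2, 0.27 without knockout 1 and 0.02 without knockout 2).

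St3gal3, St3gal4 and St3gal6 act on galactose linked to N-acetylglucosamine, as on the branches of N-glycans and on selectin ligands. St3gal3 was even within the wild type group at 36.7 and 37.5 CPM, and had 21.4 and 28.1 CPM in knockout. The knockout pair lay below the wild type pair, with a log2 fold change of -0.58 (SE 0.31, 95% interval -1.32 to 0.16, edgeR adjusted p = 0.639). St3gal4 had 78.8 and 109 CPM in wild type against 110 and 92 CPM in knockout, with a log2 fold change of 0.11 (95% interval -0.63 to 0.85) that became -0.14 without wild type 1, -0.06 without knockout 1, 0.23 without knockout 2 and 0.36 without wild type 2. Its groups overlapped. St3gal6 was barely expressed, with 26 and 57 counts in wild type against 22 and 21 in knockout. Its log2 fold change of -0.92 (SE 0.67) was -1.5 without wild type 1 and -0.08 without wild type 2, so its distance from 0 rested on wild type 2. Dcbld2 on the opposite strand shares 1603 of the 6172 exonic bases of St3gal6, and 4930581F22Rik shares 412 of the 2923 of St3gal4.

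St3gal5 makes GM3, the precursor of most gangliosides, from lactosylceramide. It had 83 and 91.5 CPM in wild type against 119 and 85.8 CPM in knockout. The groups overlapped. The fit gave a log2 fold change of 0.23 (SE 0.31, 95% interval -0.5 to 0.96, edgeR adjusted p = 0.847), with -0.06 without knockout 1, 0.13 without wild type 1 and 0.45 without knockout 2.

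St6gal1 encodes the main alpha-2,6 sialyltransferase of hepatocyte glycoproteins and is known as an acute phase gene of the liver (ENSMUSG00000022885, chromosome 16, 23224740 to 23360350). It had 63.8 and 83.9 CPM in wild type 1 and 2, and 54.2 and 30.7 CPM in knockout 1 and 2. The knockout pair lay below the wild type pair, with knockout 1 near wild type 1. In the fit this was a log2 fold change of -0.8 (SE 0.37, 95% interval -1.68 to 0.08, edgeR adjusted p = 0.627). It was -0.45 without knockout 2 and -1.3 without knockout 1.

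**Figure D2:**
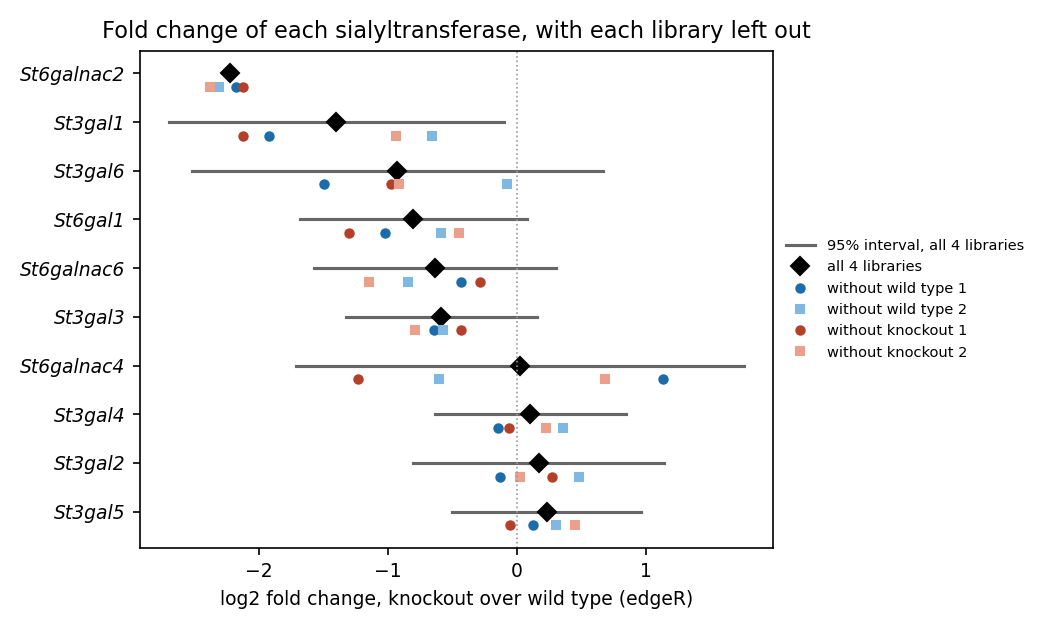
log2 fold change of each sialyltransferase gene, knockout over wild type, from edgeR with all 4 libraries (black diamonds, with 95% intervals as lines for the 9 genes other than St6galnac2) and with 1 library left out (coloured points). St6galnac2 stays between -2.37 and -2.12, and St6galnac4 spans -1.23 to 1.14.

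Of the 9 members other than St6galnac2, 0 passed edgeR's quasi-likelihood test at an adjusted p of 0.05, where 0% of all tested genes did. At an unadjusted p under 0.05 there was 1 of these 9, St3gal1, which was lower, where 8.3% of tested genes passed and 4.35% were lower. DESeq2, which called 0.997% of genes, and limma-voom each called 0 of the 9. Their adjusted edgeR p ran from 0.591 for St3gal1 to 0.993 for St6galnac4. For 6 of 10 members the knockout pair lay wholly below the wild type pair (5 with library totals), a position that 20.1% of tested genes had. The other 4 overlapped, and 0 had the knockout pair wholly above, as 21.9% of tested genes had. A negative log2 fold change was fitted for 6 of 10 members and for 49.6% of tested genes. Without wild type 2 the count stayed at 6, and the knockout libraries then lay below the remaining wild type library for 35.7% of tested genes. The median log2 fold change of the 10 was -0.61 and that of all tested genes 0.01. St6galnac2 is part of this median and was chosen for its difference, so nothing is read from these counts about the family as a whole. In bulk tissue, fewer cells of a type and less RNA per cell cannot be told apart.

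Levels of different genes were compared on the deposited FPKM scale, which divides by gene length. St3gal5 had the highest mean over the 4 libraries at 29.4 FPKM, then St3gal4 at 26.2 and St3gal1 at 23.2. A lower tier held St6gal1 at 6.6 FPKM, St3gal3 at 6.08, St6galnac2 at 5.33, St6galnac6 at 3.81 and St6galnac4 at 3.07. By group means the place of St6galnac2 differed. Its mean was 8.82 FPKM in wild type, above St6gal1 at 8.37, and 1.84 FPKM in knockout, below St6galnac4 at 3. Neither order held in both libraries of its group. In wild type 2 St6galnac2 was at 7.37 FPKM, below St6gal1 at 8.61. In knockout 2 St6galnac2 was at 1.97 FPKM, above St6galnac4 at 1.23. St3gal2 at 1.36 FPKM and St3gal6 at 0.187 FPKM closed the order. Each neighbouring pair in this order overlapped in its range over the 4 libraries, except St3gal2 and St3gal6, so most ranks next to each other are not resolved. St3gal1 was nevertheless above St6gal1 in all 4 libraries.

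The share of St6galnac2 in the summed FPKM of the 10 genes was 8.98% and 5.91% in wild type 1 and 2, and 1.6% and 2.63% in knockout 1 and 2. The groups did not overlap, and the mean share was 7.45% ± 2.17 in wild type and 2.11% ± 0.734 in knockout (SD, n = 2 each). St3gal5 took the opposite position, with 25.1% and 20.5% in wild type and 35.2% and 34.3% in knockout. St3gal4 did likewise, at 20.9% and 21.3% in wild type and 28.3% and 32.1% in knockout. In CPM the groups overlapped for both genes. In knockout 1 both stood at their highest FPKM, 37.6 for St3gal5 and 30.2 for St3gal4. In knockout 2 they were at 25.6 and 24 FPKM, within the range of wild type, and the summed total was lowest. The summed total was 114 and 125 FPKM in wild type and 107 and 74.8 FPKM in knockout.

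Within each library the ratio of St6galnac2 to another member does not depend on library scaling. Since St6galnac2 was chosen for its lower level and enters every such ratio, these are a description. Against St3gal3, the partner nearest in mean level, the ratio was 1.27 and 1.11 in wild type and 0.397 and 0.37 in knockout. Against St3gal5 it was 0.358 and 0.288 in wild type and 0.0453 and 0.0768 in knockout. Against St3gal1 it was 0.446 and 0.169 in wild type and 0.0929 and 0.251 in knockout, so the groups overlapped for this pair of O-glycan enzymes.

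**Figure D3:**
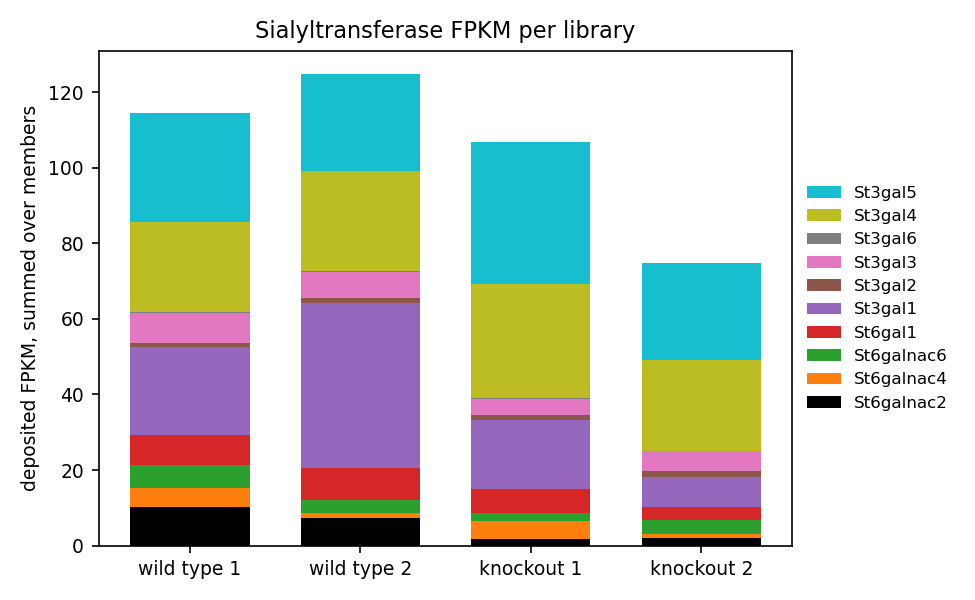
Deposited FPKM of the 10 sialyltransferase genes stacked for each library, in FPKM on the vertical axis. The black segment is St6galnac2, which makes up 8.98% and 5.91% of the stack in wild type and 1.6% and 2.63% in knockout; the purple segment is St3gal1, largest in wild type 2.

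Promoter windows of the members differ in base composition, and those of 3 members are shown for that contrast. RefSeq promoter windows on GRCm38.p6 were matched for 7 of the 10 genes: St3gal3, St3gal4, St3gal5, St3gal6, St6gal1, St6galnac4 and St6galnac6. St6gal1 has 3 listed starts. The 250 bases before the start are given 5′ to 3′ on the gene's strand, with the GC box (GGGCGG, searched on both strands, so also read as CCGCCC) in capitals.
St6galnac4, chr2:32586828-32587077, strand +: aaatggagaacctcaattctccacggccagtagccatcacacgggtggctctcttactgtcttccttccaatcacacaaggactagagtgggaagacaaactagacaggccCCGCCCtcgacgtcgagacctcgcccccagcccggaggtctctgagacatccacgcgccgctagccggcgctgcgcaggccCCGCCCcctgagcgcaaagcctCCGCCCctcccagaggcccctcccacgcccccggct
St3gal3, chr4:118134947-118135196, strand -: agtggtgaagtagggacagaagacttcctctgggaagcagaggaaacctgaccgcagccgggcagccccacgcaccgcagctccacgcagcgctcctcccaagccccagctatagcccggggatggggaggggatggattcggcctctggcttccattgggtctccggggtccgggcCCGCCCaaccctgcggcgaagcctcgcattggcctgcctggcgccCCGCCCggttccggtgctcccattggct
St6gal1, chr16:23224490-23224739, strand +: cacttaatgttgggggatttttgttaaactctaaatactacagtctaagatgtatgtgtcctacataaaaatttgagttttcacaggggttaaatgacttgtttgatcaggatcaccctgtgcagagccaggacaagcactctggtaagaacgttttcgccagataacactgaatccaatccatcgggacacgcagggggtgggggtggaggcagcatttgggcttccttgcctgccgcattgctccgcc
The window of St6galnac4, the gene whose level followed the mouse number, holds 19 CpG dinucleotides and 3 GC boxes, and that of St3gal3 holds 18 and 2. The first St6gal1 window holds 6 CpG and 0 GC boxes, and its other windows hold 10 and 5 CpG, again with 0 GC boxes. The median over all 32851 RefSeq windows was 6 CpG, and 32.7% of windows held a GC box. The E-box CACGTG, a sequence bound by MYC and its partners and the same on both strands, was in 6% of all windows and in 0 of the windows of these 7 genes. Some of these windows overlap annotated exons. Exonic bases were 250 of 250 for St3gal4, 240 for St6galnac6, 193 for 1 St3gal6 window and 16 for St3gal5. The 3 windows shown hold 0 exonic bases. A match or its absence describes these letters in these windows only.

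The sialyltransferases outside the set ranged from 0 to 132 counts in a library. Of 10 such genes, St6gal2, St6galnac5, St8sia2 and St8sia5 had 0 counts in every library, and 3 passed the filter on low counts. St6galnac1, the sialyl-Tn synthase gene, which lies on chromosome 11 from 116765025 to 116775507, near St6galnac2, had 132 and 12 counts in wild type against 26 and 15 in knockout. It was high in wild type 1 alone, and its log2 fold change of -1.64 (edgeR adjusted p = 0.666) was 0.67 without wild type 1 and -2.49 without wild type 2. St8sia4, a polysialyltransferase, had 79 and 42 counts in wild type against 74 and 35 in knockout, and St8sia3 had 6 to 16 counts per library.

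Genes that make, use and remove sialic acid were followed in 6 further lists. edgeR called 0 of their genes, as it called 0% of all tested genes, so the calls do not set any list apart. The list around CMP-sialic acid, the activated donor of every sialyltransferase, had 8 of 8 members tested. Of these, 5 had a negative and 3 a positive log2 fold change (median -0.44). The list also held Npl and Renbp, which do not make the donor. Their log2 fold changes, -1.79 and -1.14, were the lowest of the list, so the median is not one of donor supply alone. Gne, the bifunctional enzyme that starts sialic acid synthesis, had 131 and 198 CPM in wild type against 109 and 86.6 CPM in the knockout pair (log2 fold change -0.75, SE 0.34, edgeR adjusted p = 0.622, and -0.42 without wild type 2). The sialic acid lyase gene Npl had 5.39 and 4.55 CPM in wild type against 1.73 and 1.14 CPM in knockout. Renbp, an epimerase of N-acetylglucosamine, had 6.48 and 9.49 CPM in wild type against 3.33 and 3.91 CPM in knockout. These 3 had the smallest p of the list. Over all 8 genes the knockout pair lay below the wild type pair for 5, above it for 2 (1 with library totals) and overlapped for 1, where 20.1% of tested genes lay below and 21.9% above. The 2 above were Nanp, the phosphatase of sialic acid synthesis, with a log2 fold change of 0.13, and Slc17a5, the lysosomal sialic acid exporter, at 0.35. Slc35a1, the transporter that carries CMP-sialic acid into the Golgi, was the one that overlapped.

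Sialic acid removal was followed by 6 tested genes of 7, of which 5 were negative (median -0.26). Neu1, the lysosomal sialidase, had 81.3 and 115 CPM in wild type against 53.9 and 50.6 CPM in the knockout pair (log2 fold change -0.91, SE 0.31, edgeR adjusted p = 0.554). Ctsa, which encodes the protective protein that Neu1 needs in the lysosome, had 208 and 368 CPM in wild type against 250.5 and 201 CPM in knockout, with overlapping groups. Casd1, the enzyme that O-acetylates sialic acid, overlapped as well.

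Enzymes that build the acceptor glycans had log2 fold changes of both signs. The mucin-type O-glycan list had 14 of 16 members tested, 8 positive and 6 negative (median 0.04). Galnt6, which adds the first sugar of O-glycans, had 13.2 and 16.6 CPM in wild type against 5.74 and 3.91 CPM in the knockout pair (log2 fold change -1.63, SE 0.41, edgeR adjusted p = 0.545). Galnt3, of the same family, had 5.55 and 3.51 CPM in wild type against 1.85 and 1.26 CPM in knockout, and B3gnt3, which extends core 1, had 5.66 and 9.88 against 4.01 and 1.89 CPM. These 3 had the smallest p of the list. Over its 14 tested genes the knockout pair lay below the wild type pair for 5 (4 with library totals), above it for 4 (3 with library totals) and overlapped for 5. Of all tested genes, 20.1% lay below and 21.9% above. The 4 above in this list were Galnt2, Galnt7, Galnt11 and C1galt1, the core 1 synthase gene, with log2 fold changes of 0.38 to 0.78. The N-glycan list had 14 of 14 tested, 5 positive and 9 negative (median -0.14). Its member with the smallest p, the Golgi mannosidase gene Man2a2, was higher in both knockout libraries at 60.3 and 77 CPM against 32.9 and 26.4 CPM in wild type (log2 fold change 1.21, SE 0.31, edgeR adjusted p = 0.545). B4galt1, which adds the galactose that N-glycan sialyltransferases cap, had 86.2 and 88.6 CPM in wild type against 69.8 and 56.8 CPM in knockout.

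Ganglioside enzymes had 9 of 9 members tested, 3 positive and 6 negative (median -0.48). Hexa, a lysosomal enzyme gene of ganglioside breakdown, was fitted at -0.95 (SE 0.35) on the log2 fold change scale, with edgeR adjusted p = 0.572, and at -0.6 without wild type 2. Gm2a, a lysosomal activator protein that acts in the same pathway, had 162 and 202 CPM in wild type against 136 and 81.9 CPM in knockout. Of the 9 genes, 3 had the knockout pair below the wild type pair, 0 had it above and 6 overlapped. Of all tested genes, 20.1% had it below and 21.9% above. Lectins that bind sialic acid or exposed galactose had 13 of 15 tested, 4 positive and 9 negative (median -0.09). In this list the knockout pair lay below the wild type pair for 2 (1 with library totals), above it for 2 and overlapped for 9. Siglece, a sialic acid receptor of myeloid cells, had 7.35 and 6.69 CPM in wild type against 1.79 and 2.78 CPM in the knockout pair (log2 fold change -1.62, SE 0.49, edgeR adjusted p = 0.547). Siglec15 had 0 counts in every library.

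**Figure D4:**
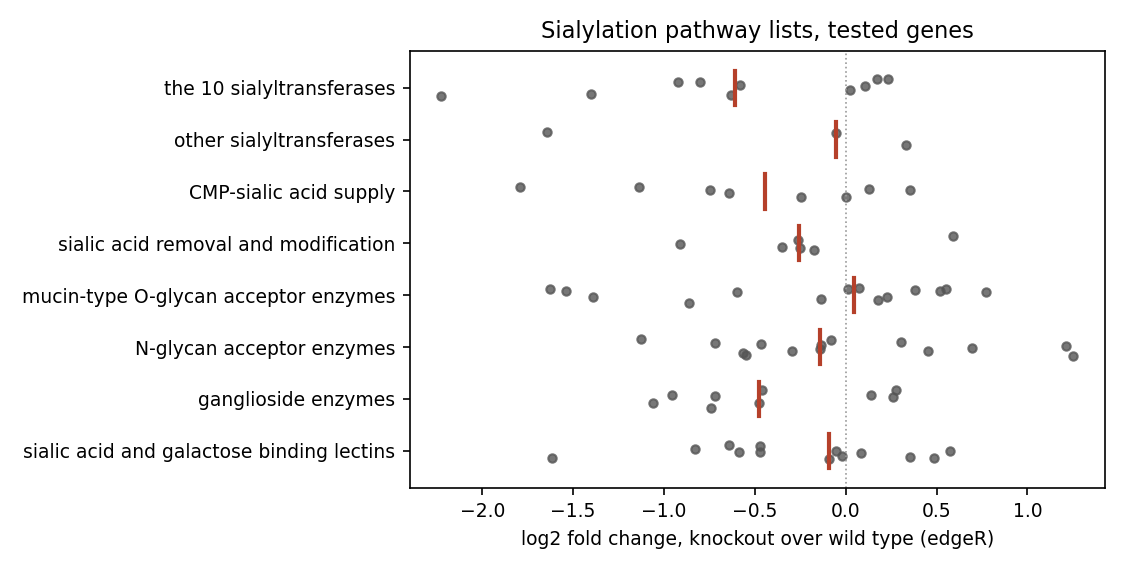
log2 fold change, knockout over wild type, of each tested gene (grey points) in the sialyltransferase set and 7 further lists, with the list median as a red bar. The median of the 10 sialyltransferases is -0.61, and those of the other lists lie between -0.48 and 0.04.

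The genes whose library profile lay nearest to that of St6galnac2 were Rbp7, Tuba8, Kcnj8, Slc36a1 and Lmo2. Nearness was the Euclidean distance over the 4 libraries in log2 CPM, centred on each gene's mean, among genes of at least 5 CPM with an established name, and these 5 had distances of 0.271 to 0.488. Among the other members of the set, St6galnac6 at 1.61, St6gal1 at 1.633, St3gal3 at 1.634 and St3gal1 at 1.644 were nearest, at about the same distance. Rbp7, a cytoplasmic retinol-binding protein gene, had 11.9 and 10.6 CPM in wild type against 2.65 and 2.78 CPM in knockout. Kcnj8, a potassium channel gene of pericytes and smooth muscle, had 23.5 and 25.1 against 5.3 and 4.48 CPM. Lmo2, a transcription cofactor gene of blood and endothelial cells, had 45.3 and 55.5 against 10.7 and 9.27 CPM. Being chosen for their likeness to St6galnac2 over only 4 libraries, they are a description of the profile.

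**Figure D5:**
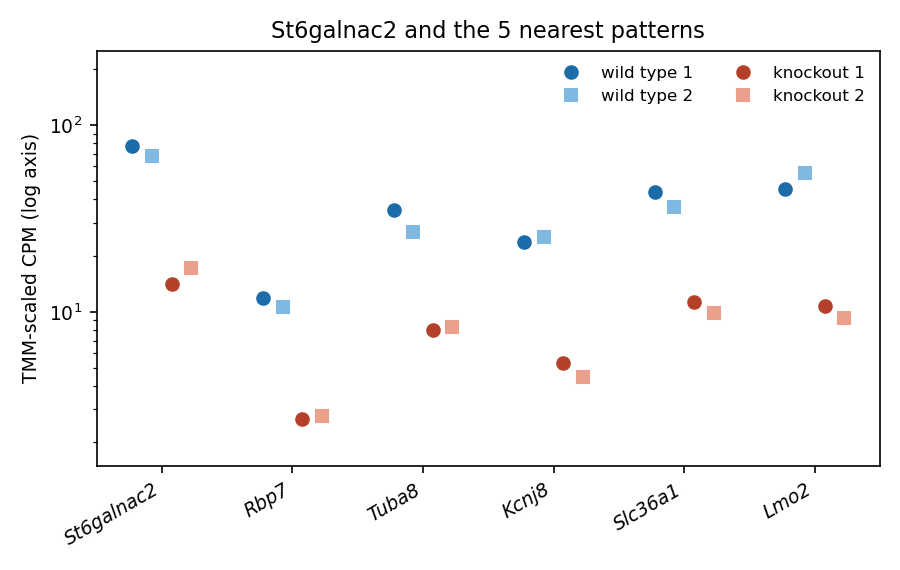
TMM-scaled CPM (log axis) in each library for St6galnac2 and the 5 genes with the nearest library profile (blue wild type, red knockout). In each gene the wild type pair lies above the knockout pair, as in St6galnac2 with 77.3 and 68.7 against 14.1 and 17.2.

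Markers of several other cell types were also at lower values in the libraries labelled knockout. Of 13 macrophage and Kupffer cell markers 13 had a negative log2 fold change, as had 49.6% of tested genes. The knockout pair lay below the wild type pair for 7 of them and overlapped for 6, where 20.1% of tested genes lay below. The summed level of these markers was 775 and 1153 CPM in wild type against 432 and 300.3 CPM in knockout. The erythroid list had 6 of 10 markers tested, 5 negative and 1 positive, and Rhag at 0. It summed to 957 and 2174 CPM in wild type against 213 and 151.5 CPM in knockout. The neutrophil list, with 6 of 10 tested and Ly6g at 0, summed to 25.4 and 71 CPM in wild type against 14 and 14.8 CPM in knockout. Of 10 endothelial markers 8 were negative, with sums of 210.5 and 271 CPM in wild type against 165 and 148 CPM in knockout. These 4 sums were lower in both knockout libraries, each with wild type 2 the highest library.

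Fibroblast and stellate cell markers, 8 of 10 negative, summed to 1460 and 1270 CPM in wild type against 654 and 1202 CPM in knockout. This sum too was lower in both knockout libraries. Like the T cell sum, it was highest in wild type 1. With library totals in place of TMM it overlapped, since knockout 2 was then at 1160 CPM and wild type 2 at 1146 CPM. Cholangiocyte markers, 3 of 6 tested negative, summed to 434 and 994 CPM in wild type against 1097 and 1155 CPM in knockout. The hepatocyte list, 4 of 11 negative, T cell list, 2 of 10 negative, and B cell list, 2 of 5 tested negative, had overlapping sums. For 5 of the 10 T cell markers (3 with library totals) the knockout pair lay above the wild type pair, as for 21.9% of tested genes. The hepatocyte sum was lowest in wild type 1, at 19090 CPM against 64420 in wild type 2 and 46470 and 40650 in knockout. The T cell sums were 29.1 and 12.7 CPM in wild type against 24.7 and 23.6 CPM in knockout, and the B cell sums 12.7 and 10.8 against 11.3 and 15.6 CPM. The part of any of these cell types in the level of St6galnac2 was not tested.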

How the data were processed

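RNA was extracted from tumour tissue with a column kit and made into poly(A) mRNA libraries, per the labels' protocols. The authors deposited raw counts per gene and FPKM for the 4 libraries in 1 table. HISAT2, SAMtools 1.3.1, StringTie, edgeR and mm10 are named, without roles, per the submitters' processing notes. The deposited FPKM was a fixed multiple of the count share of each gene, within 1%, for 100% of genes with at least 10 counts in each library, so it served only to compare levels between genes. Of 55487 identifiers 55141 matched a symbol, and 99.4% of matched spans equalled GENCODE M21.

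Samples were grouped by title. Low counts were filtered with filterByExpr, which left 16310 genes, and TMM factors scaled the libraries. The test was the quasi-likelihood F test of edgeR 4.0.16 under R 4.3.3. It was two-sided, its p-values were adjusted by Benjamini-Hochberg across the 16310 genes, and the threshold was 0.05. An exact permutation test of 2 against 2 cannot go below 0.333. The replicates are separate mice by the design text. The test was tested on simulated data. Floors cover counting error only.

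The members and gene lists were chosen with earlier results of these data known. The named genes were the members, Tfrc, Alb, the tested other sialyltransferases, up to 3 genes per pathway list by smallest p, lists' genes at 0, and the 5 profiles nearest to St6galnac2. Slc35a1, Nanp, Slc17a5, Galnt2, Galnt7, Galnt11 and C1galt1 were added after values were seen. One gene of the ganglioside list that this rule names is not reported here. Alternatives were DESeq2's size factors, library totals, leaving out 37 mitochondrial genes, no filter, a filter at 5 CPM, DESeq2 1.42.0, limma-voom 3.58.1, a replicate block, summed identifiers, shares of CPM, and each library left out. The counts of members below wild type under library totals and without each library, the positions and sums of the lists under library totals, and the summed FPKM without wild type 2, were added after seeing the data.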

Additional observations from a re-analysis of the deposited data

How the results depend on the processing

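The number of genes called by edgeR was 0 and became 1 with library totals, 1 with limma-voom and 150 with DESeq2 (65 higher, 85 lower). With the replicate number as a block it was 4. The numbers are not shown to pair the mice. Across tested genes, the deviations of wild type 1 and knockout 1 from their group means correlated at only 0.121. With 2 libraries a group, wild type 2 and knockout 2 mirror these deviations and add no second value. Leaving out 1 library gave 0 to 409 calls, with 409 without wild type 1, 68 without wild type 2 and 3 without knockout 2.

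The median of the 10 members stayed between -0.7 and -0.53, the knockout minus wild type difference in the FPKM share of St6galnac2 of -5.33 percentage points between -6.87 and -3.8, and the count of members with knockout below wild type between 5 and 7. St6galnac4 was at -0.06 with library totals, -0.01 with no filter and -0.02 with limma-voom. Leaving out 1 library turned the sign of 4 members and 7 other named genes. The ranges were -0.13 to 0.49 for St3gal2, -0.14 to 0.36 for St3gal4, -0.06 to 0.45 for St3gal5, -1.23 to 1.14 for St6galnac4, -2.49 to 0.67 for St6galnac1, -0.3 to 1.29 for St8sia3, -0.7 to 0.38 for St8sia4, -0.74 to 0.12 for Ctsa, -1.26 to 0.44 for Cd33, -0.79 to 0.16 for Tfrc and -0.64 to 1.85 for Alb. The cause was not tested. With 2 libraries a group, the fit without 1 library assumes that the lone sample varies like the other group. St3gal6, with 21 to 57 counts per library, was not tested at a filter of 5 CPM.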
